A study of Mus musculus with 4 samples.

Results

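The transcriptome of control mouse embryonic stem (ES) cells was described from the 4 arrays of cells that had received a hairpin against GFP, out of 16 arrays in all. A probe was called expressed when its detection p, the chance that a background probe is as bright, was under 0.01 on all 4 arrays, silent when it passed on none of them, and mixed otherwise. A gene was called expressed when at least 1 of its probes was, silent when none of its probes passed on any array, and mixed in all other cases. By this rule 10698 of 25697 probes (41.6%) and 7662 of 16593 genes (46.2%) were expressed, and 6588 genes (39.7%) were silent.

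All 4 groups were mouse ES cells, labelled E14 under developmental stage. They had received short hairpin RNA (shRNA) by means of a lipid reagent, and total RNA was taken after 2 days of puromycin. The hairpins were directed against Esrrb, against Sox2, against both genes together (dual) or against GFP, the control, with 4 arrays lettered A to D per group, hybridised to 1-colour Illumina bead arrays. The labels name 4 replicates per group and do not say whether these were separate transfections, so the spread between arrays may be technical. Every group, the control included, carried a hairpin and had passed drug selection, so none is an untreated culture.

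Mouse ES cells are derived from the early epiblast and can give rise to every lineage of the embryo while dividing rapidly. Their identity rests on a network of transcription factors around Oct4 (Pou5f1), Sox2 and Nanog, held in place by LIF acting through Stat3 and by BMP acting through Smad proteins, while FGF signalling through Erk drives them towards differentiation. Regulators of later lineages are largely off in such cells, and many of their promoters carry Polycomb marks.

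The GFP arrays fell into 2 sets. Arrays A and B detected 11286 and 11886 probes, and arrays C and D detected 13208 and 13322. The lowest detected signal was 43.7 on array A, 37.4 on B, 18 on C and 17.8 on D, so a dim probe passed more easily on C and D than on A and B. Over the expressed probes alone, log2 intensities correlated at r = 0.994 between A and B, at 0.993 between C and D, and at 0.984 to 0.989 between arrays of different sets. All ES cell markers passed, 10 of 10, among them Pou5f1, Nanog and Utf1. Their summed intensity ran from 80430 to 84381 over the GFP arrays. Fibroblast and feeder markers were expressed at 4 of 11 with 3 silent, and their sum ran from 2771 to 3044. Among the fibroblast markers Col3a1, Dcn and Postn, which encode matrix proteins of mesenchyme, were silent, whereas Thy1 and Fbln2 gave 990 ± 58.4 and 1469 ± 79.7 (SD, n = 4 arrays, as throughout). A bulk array cannot tell few cells with a transcript from many cells with little of it, and this holds for each dim gene below.

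The expressed genes spanned mean intensities of 33.4 to 53322, with a median of 405 and quartiles of 143 and 1238. Of these genes 6362 reached 100, 2264 reached 1000 and 181 reached 10000. Silent genes had means of -18.2 to 26.4 with a median of 0.925. The 10 brightest probes held 3.55% of the summed intensity of expressed probes, the 100 brightest 21.4% and the 1000 brightest 61.2%. Intensities are linear and were averaged as deposited. Probes differ in their affinity for their target, so ranks order signals and not transcript numbers. At the detection threshold, Arrdc2 (67.1, 37.5, 41.0 and 53.7 on arrays A to D), Dmrta2 and Eml3 were the last probes to be included, and Chrnb4 (48.7, 41.0, 17.8 and 23.8), Ms4a6d and Lmcd1 were the first to be left out. The last 3 missed the threshold by their signal on array C or D, where they lay at 17.8 to 18.5.

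The brightest genes were those of protein synthesis, the cytoskeleton, chromatin and energy supply. Rplp1, a protein of the ribosomal stalk, ranked first at 55468, 53319, 50695 and 53808 on arrays A to D and held that rank on every array. Dppa5a, an RNA-binding protein of pluripotent cells and the germ line, ranked second with 54108, 50433, 48627 and 49062. It was the only gene of the pluripotency lists among the 20 brightest. Ribosomal proteins made up 11 of the 20 brightest genes and 27 of the 50 brightest. They included Rps2 (49076 ± 928), Rpl9 (48028 ± 5295), Rpl41 (44372 ± 1562) and Rps20 (42361 ± 4605). The rest of the 20 comprised the histone genes H2ac24 (45465 ± 3369) and H2ac20 (40007 ± 2242), the tubulins Tuba1b (44740 ± 1776) and Tubb5 (39053 ± 1290), the ATP synthase subunit Atp5b (43317 ± 2461), the cytokine Mif (40969 ± 2207), the chaperone Hspa8 (39808 ± 1525) and the glycolytic enzyme Gapdh (37936 ± 3494). Ribosomal proteins have many processed pseudogenes and the H2A genes are near-identical copies, so a probe may collect signal from several loci. Ranking by background-corrected, quantile-normalized values gave 19 of the same 20 genes and 199 of the same 200.

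**Figure D1:**
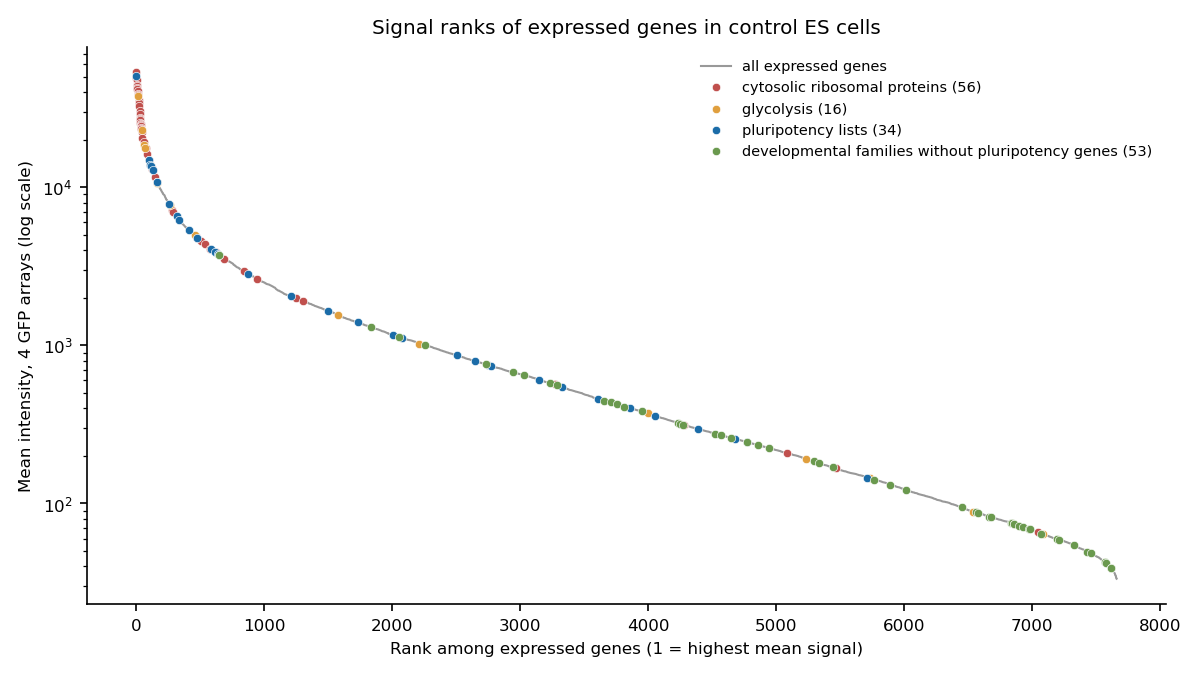
Mean intensity over the 4 GFP arrays (log scale) against rank among the 7662 expressed genes, with 4 gene classes marked on the curve. Cytosolic ribosomal proteins crowd the bright end, pluripotency genes run from rank 2 down to dim signals, and developmental transcription factors outside the pluripotency lists lie mostly in the dimmer part.

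The promoters of expressed and silent genes differed in sequence. RefSeq promoter windows on GRCm38.p6, from 250 bases before to 50 bases after the start, were matched for 13335 of 16196 genes considered. Windows of 5 genes are shown as examples of the classes described here. They are a ribosomal protein, Pou5f1 and Nanog as pluripotency factors with a CpG-poor start, a silent developmental regulator and a silent liver gene. Each is written 5′ to 3′ with CpG dinucleotides in capitals.
Rps2, chr17:24719813-24720112, plus strand: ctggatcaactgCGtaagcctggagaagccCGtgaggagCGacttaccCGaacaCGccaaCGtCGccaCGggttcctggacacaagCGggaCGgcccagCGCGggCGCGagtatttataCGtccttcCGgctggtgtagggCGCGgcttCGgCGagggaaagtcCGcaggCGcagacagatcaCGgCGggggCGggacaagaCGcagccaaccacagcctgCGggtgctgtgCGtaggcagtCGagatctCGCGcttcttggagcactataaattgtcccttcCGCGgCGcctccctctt
Pou5f1, chr17:35505782-35506081, plus strand: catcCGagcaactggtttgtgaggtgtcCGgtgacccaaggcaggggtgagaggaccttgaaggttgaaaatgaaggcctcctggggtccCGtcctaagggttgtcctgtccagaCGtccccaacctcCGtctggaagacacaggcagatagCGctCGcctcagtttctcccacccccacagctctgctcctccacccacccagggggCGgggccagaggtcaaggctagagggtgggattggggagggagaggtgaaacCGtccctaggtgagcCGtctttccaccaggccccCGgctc
Nanog, chr6:122707239-122707538, plus strand: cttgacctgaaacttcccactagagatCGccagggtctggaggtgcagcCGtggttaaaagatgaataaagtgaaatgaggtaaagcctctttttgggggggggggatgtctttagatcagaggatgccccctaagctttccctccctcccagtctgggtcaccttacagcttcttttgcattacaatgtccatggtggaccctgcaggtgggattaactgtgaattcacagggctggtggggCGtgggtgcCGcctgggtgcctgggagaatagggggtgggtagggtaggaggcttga
Pax6, chr2:105668646-105668945, plus strand: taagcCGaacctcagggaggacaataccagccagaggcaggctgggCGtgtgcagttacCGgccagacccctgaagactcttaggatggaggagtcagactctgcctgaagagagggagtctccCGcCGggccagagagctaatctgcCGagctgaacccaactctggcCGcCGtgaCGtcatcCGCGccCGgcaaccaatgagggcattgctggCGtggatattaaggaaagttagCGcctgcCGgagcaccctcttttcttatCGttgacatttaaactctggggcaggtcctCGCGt
Alb, chr5:90460620-90460919, plus strand: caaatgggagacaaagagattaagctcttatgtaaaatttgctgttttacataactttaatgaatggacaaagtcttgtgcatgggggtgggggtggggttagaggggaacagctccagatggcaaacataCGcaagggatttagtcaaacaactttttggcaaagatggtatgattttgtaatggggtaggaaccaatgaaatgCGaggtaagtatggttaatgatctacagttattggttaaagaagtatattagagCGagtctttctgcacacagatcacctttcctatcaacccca
The Rps2 window held 34 CpGs, an observed over expected ratio of 1.11. Pou5f1 had 11 CpGs (ratio 0.374) and Nanog 4 (0.192), although both genes were bright. Not every core factor was CpG-poor, since the window of Sox2, not shown, had 27 CpGs (0.819). Pax6, silent in these cells, had 18 CpGs (0.698), and Alb, the serum albumin gene, had 3 (0.272). Pou5f1, Nanog and Pax6 have more than 1 annotated window, of which the first listed was used.

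Over all genes the median CpG observed over expected ratio was 0.778 for 6237 expressed genes, 0.590 for 1854 mixed genes and 0.289 for 5244 silent genes. Counting a window as CpG-rich at a ratio of 0.6 or more, 75.1% of expressed, 49.2% of mixed and 27.6% of silent genes were CpG-rich, against 52.8% of all genes on the array with a window and 36.5% of all windows in the table. The share climbed with signal. Over 4 bins of expressed genes of equal size, dimmest to brightest, it was 64.1, 74.7, 77.9 and 83.0%. Read the other way, 66.5% of genes with a CpG-rich window and 24.7% of those with a CpG-poor one were expressed. Olfactory, vomeronasal and taste receptor genes, with CpG-rich windows in 0.570%, made up part of the silent class, and without them 33.8% of silent genes were CpG-rich. Restricting the count to genes with 1 annotated window gave 77.7% for expressed and 25.8% for silent genes. These shares are descriptions of the reference sequence, and no test was made.

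Short motifs also differed in frequency between expressed and silent windows, in either direction. The letters GGGCGG, searched on both strands and found in Sp1 sites, occurred in 67.2% of expressed and 30.02% of silent windows, against 50.3% of all genes on the array with a window and 35.9% of all windows in the table. They contain a CpG, so this count moves with CpG content. TATAAA, searched on the gene's strand from 45 to 16 bases before the start, occurred in 1.38% of expressed and 4.67% of silent windows, against 2.85% of genes on the array and 2.36% of all windows. Among the 200 brightest expressed genes, however, 7 of 171 windows (4.09%) held it, near the silent share. CACGTG, a palindrome and the E-box of Myc and related factors, occurred in 10.5% of expressed and 6.06% of silent windows, against 8.45% of genes on the array and 7.24% of all windows. It too contains a CpG, so the same limit holds. CTTTC, on the gene's strand from 10 bases before to 20 after the start, resembles the pyrimidine tract at which transcripts of ribosomal proteins start. It lay in 22.2% of 54 ribosomal protein windows, 3.37% of those of all genes on the array and 3.66% of all windows in the table. Among expressed windows it lay in 2.90% and among silent windows in 3.89%. Fewer than 80% of the developmental, tissue, pluripotency and lineage genes had a window, so a comparison of promoters within those lists would be void and is not given.

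**Figure D2:**
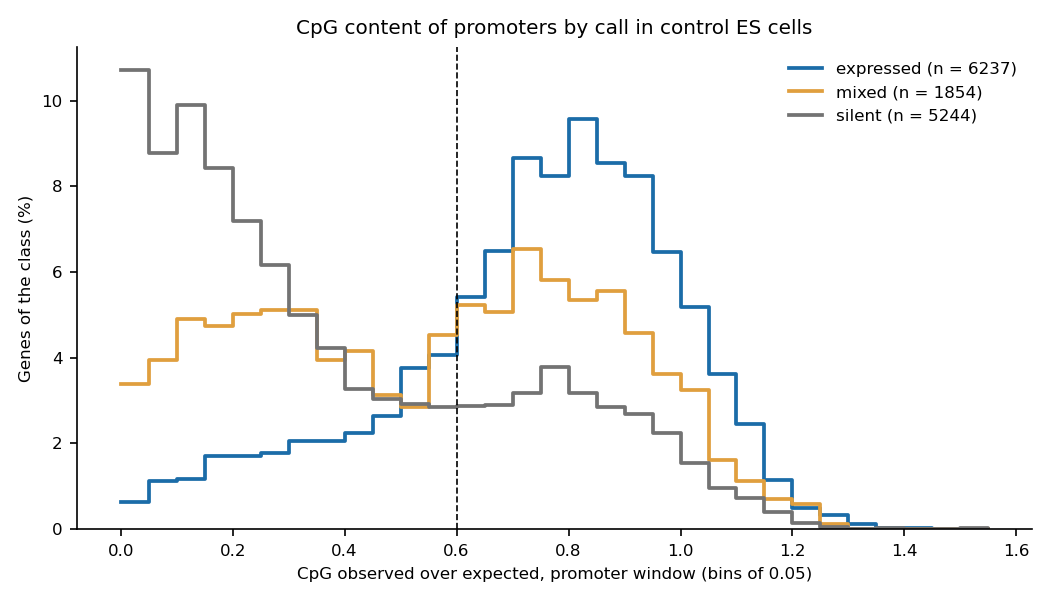
Distribution of the CpG observed over expected ratio of promoter windows (bins of 0.05), as a percentage of the genes of each class, for expressed (n = 6237), mixed (n = 1854) and silent (n = 5244) genes. The dashed line marks the ratio of 0.6. Expressed genes peak to its right, silent genes are most frequent near 0 with a low shoulder on the right, and mixed genes lie in both ranges.

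The machinery that every cell uses was detected nearly throughout. Over 8 housekeeping families 313 of 373 genes (83.9%) were expressed, against 46.2% of all genes on the array. Cytosolic ribosomal proteins were expressed at 56 of 63, mitochondrial ribosomal proteins at 68 of 76, subunits of respiratory complex I at 30 of 34, and proteasome subunits at 35 of 40. Cytochrome c oxidase and ATP synthase subunits followed with 26 of 31, splicing proteins with 37 of 47, translation initiation factors with 36 of 47 and chaperones with 25 of 35. The 42 silent members serve as a gauge of false silence. Some encode forms restricted to other tissues, such as Cox6a2 and Cox8b of striated muscle, Cox7b2 of the testis and Psmb8 of the immunoproteasome. Others are needed by every cell, among them Rplp2 at 0.050, Rps23 at -1.5, Rpl14 at -3.55, Psma1 at -5.72 and Ndufs1 at -2.85. The cytoplasmic actin gene Actg1 was silent too, at -16.6, -8.2, 11.1 and 10.7 on arrays A to D, and the elongation factor gene Eef1a1 was mixed. A silent call therefore does not show that a transcript was absent. The call also depended on the number of probes, since 39.7% of genes with 1 probe and 62.1% of genes with more were expressed, and 1145 expressed genes also had a silent probe.

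Glycolysis was bright as a pathway, with 16 of 17 genes expressed. Besides Gapdh, lactate dehydrogenase Ldha reached 22937 ± 517, the glucose transporter Slc2a1 18626 ± 1274, triosephosphate isomerase Tpi1 17766 ± 1043 and hexokinase Hk2 13979 ± 282. The lactate transporter Slc16a1 was the silent member. A second glucose transporter gene, Slc2a3, gave 18928 ± 392 and was among the 3 brightest of 137 expressed solute carriers.

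**Figure D3:**
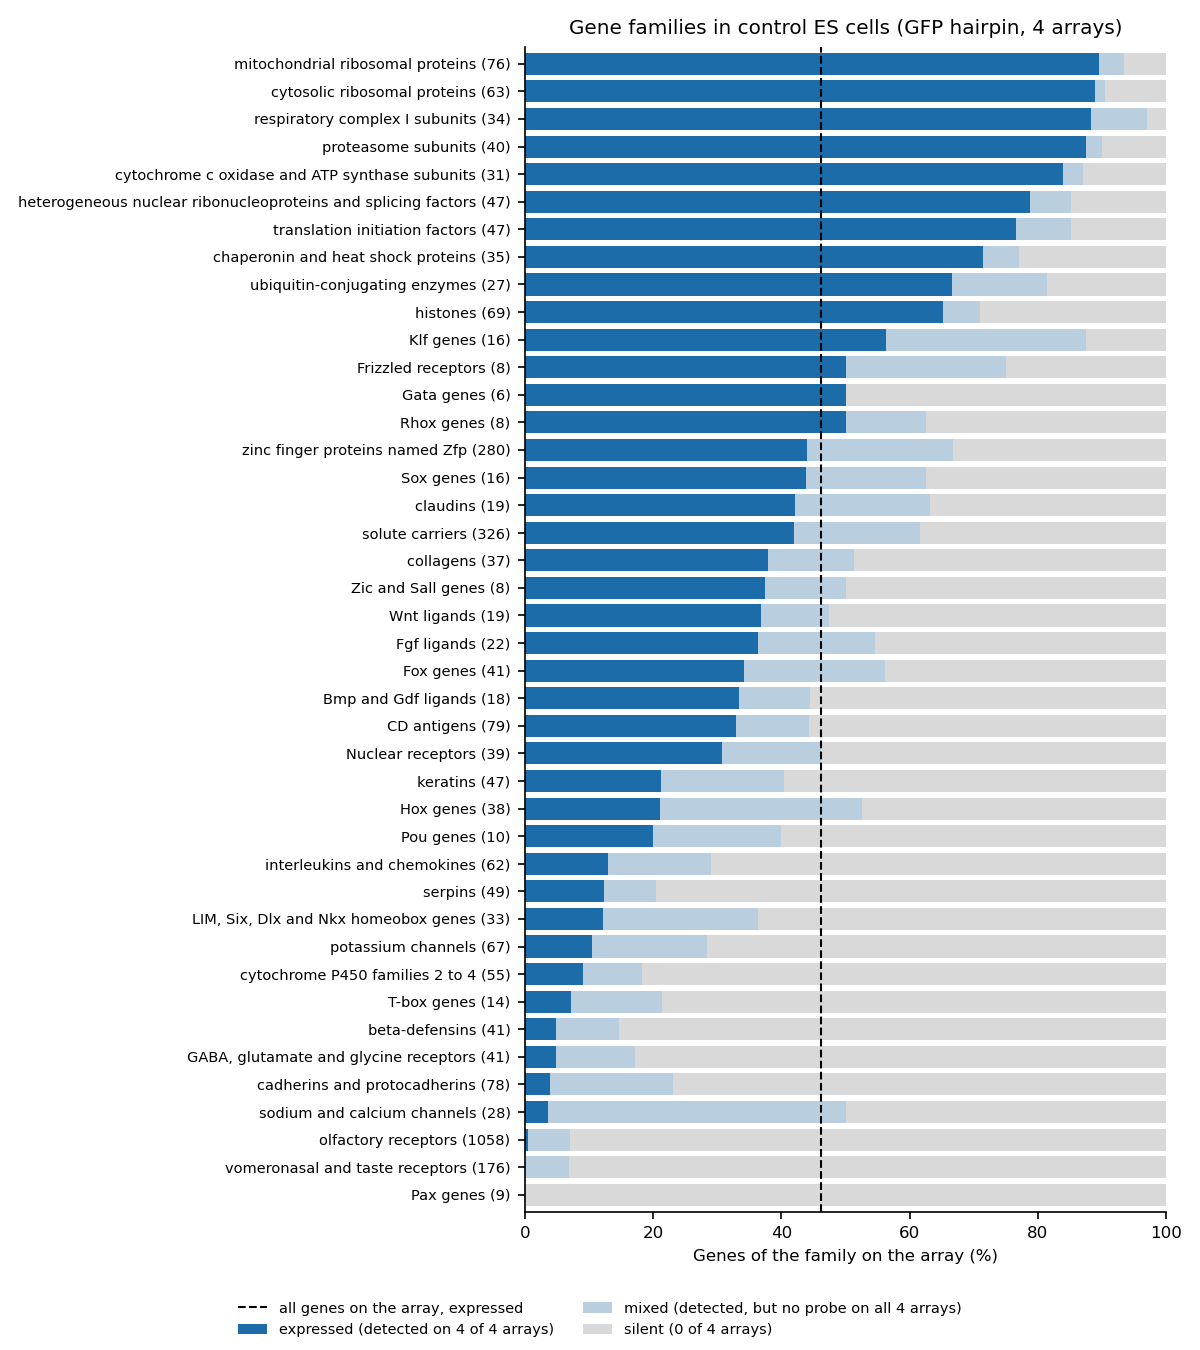
Share of the genes of 42 families that were expressed, mixed or silent on the 4 GFP arrays, with the number of genes on the array in brackets. The dashed line marks the 46.2% expressed among all genes. Ribosomal, mitochondrial and proteasome families stand at the top, Klf, Frizzled and Gata genes near the line, and channels, neurotransmitter receptors, chemoreceptors and Pax genes at the bottom.

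The pluripotency network was on, with 34 of 36 genes of the 3 pluripotency lists expressed, 2 silent and 0 mixed. Esrrb, an orphan nuclear receptor, was the brightest core factor with 12536, 13404, 12236 and 13188 on arrays A to D, rank 131 of 7662. Pou5f1, which encodes Oct4, gave 5948, 5892, 5883 and 7010, with array D above the other 3. Nanog gave 4731, 5294, 4853 and 4338, highest on B and lowest on D. Zfp42 (Rex1), a marker of the naive state, gave 3128, 3802, 4932 and 4461, with both arrays of the C and D set above both of the A and B set. Sall4, a zinc finger partner of Oct4, gave 3321, 3634, 4073 and 4199 and was split by set in the same way. Sox2 was dimmer on its probe with 744, 816, 870 and 751, rank 2646. Prdm14, a regulator of naive pluripotency and germ cells, was the silent core member with 20.2, 25.6, 4.1 and 6.0.

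Among the factors of the naive state 13 of 15 were expressed. Klf5 (5362 ± 121), Klf2 (3741 ± 208) and Klf4 (737 ± 42.2) encode Krüppel-like factors that sustain self-renewal together. Gbx2, a target of LIF and Stat3, gave 2839 ± 509 and Tcl1, a cofactor of Akt, 1114 ± 116. Tbx3 (749 ± 21.4) and the nuclear receptor Nr5a2 (460 ± 33.4), which can drive Pou5f1, were lower. Nr0b1, which encodes the Oct4 partner Dax1, was silent with 23.0, 0.7, 8.9 and 8.8. All 18 genes of the general pluripotency list were expressed. After Dppa5a came the corepressor Trim28 (14780 ± 581), the DNA methyltransferase cofactor Dnmt3l (13900 ± 423) and the Oct4 target Fbxo15 (13653 ± 817), at ranks 100 to 115. Among the dimmest of that list were Sox15 (244 ± 9.3) and the RNA-binding protein Lin28a (256 ± 32.9).

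**Figure D4:**
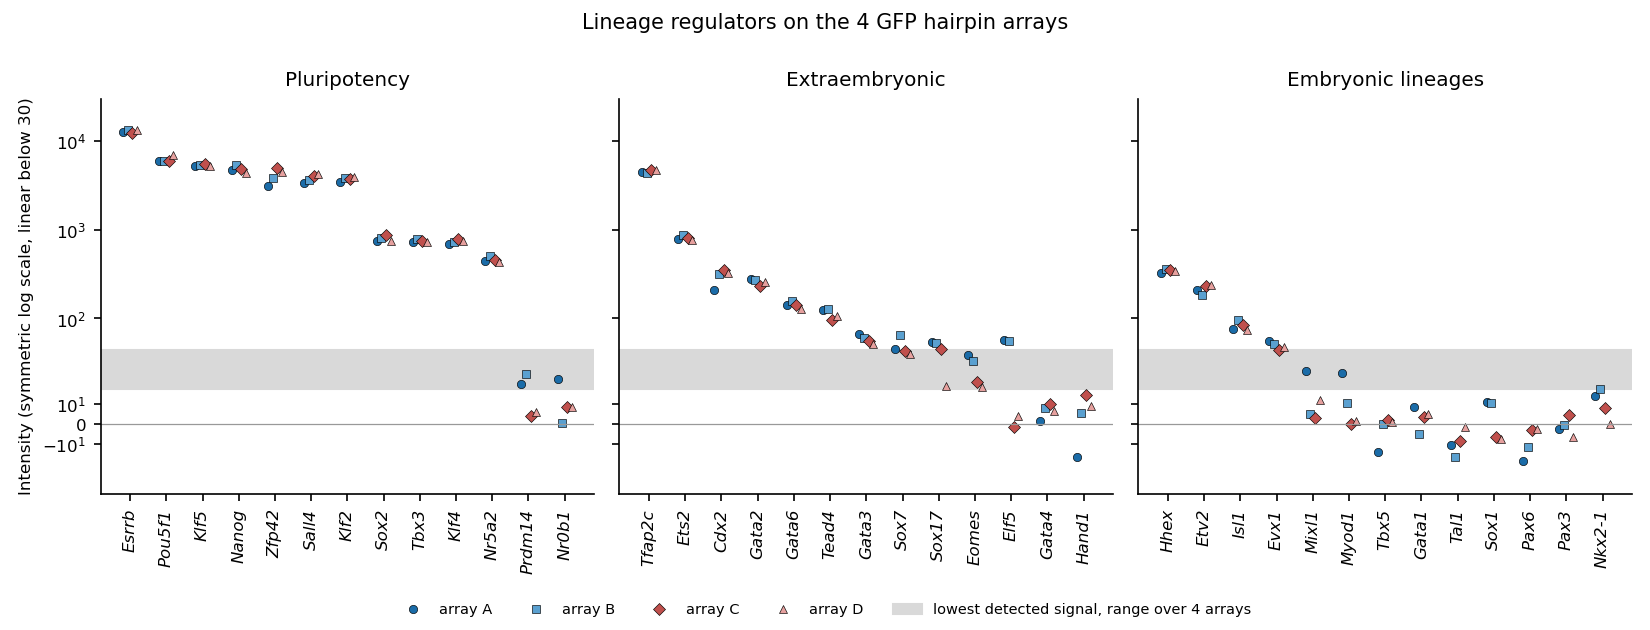
Intensity of selected regulators on GFP arrays A to D (symmetric log scale, linear below 30), 1 symbol per array, in 3 panels for pluripotency, extraembryonic and embryonic lineage genes. The grey band spans the lowest detected signal of the 4 arrays, 17.8 to 43.7. Most pluripotency factors lie far above the band, extraembryonic regulators are spread from Tfap2c at 4562 down to Hand1 at 3.25, and most embryonic regulators lie in or below the band.

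Of the primed epiblast list, genes of a neighbouring pluripotent state, 6 of 12 were expressed, beside 46.2% of all genes on the array. Dnmt3b, a de novo DNA methyltransferase, reached 7888 ± 360. The TGF-beta ligand Nodal gave 479 ± 39.4, the homeobox gene Otx2 356, 498, 512 and 489, and the POU factor Pou3f1 423 ± 30.7. Fgf5, the classical marker of primed epiblast, was mixed, with no array above 20.3, and Foxd3, Cer1 and Dnmt3a were silent. Of 10 genes known from the 2-cell-like state, 6 were expressed. Zscan4c reached 10341, 12024, 12438 and 11802, rank 149, and Tcstv3 2220 ± 97.8. Zscan4 genes form a cluster of close copies and are known to be active in a few cells of a culture at a time. Their probes may read several copies.

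Of the genes in the extraembryonic lists 16 of 29 (55.2%) were expressed and 5 silent. Of those in the lists for the embryo's own lineages 24 of 97 (24.7%) were expressed and 54 silent, beside 46.2% of all genes on the array expressed. Besides regulators, the lists hold structural and tissue genes, such as keratins and basement membrane genes in the former and Acta1, Krt10 and Alb in the latter. No test was made between these lists. In the trophectoderm list 9 of 15 were expressed. Tfap2c, an AP-2 factor of trophoblast and germ cells, was the brightest factor with 4421, 4372, 4702 and 4754, and the simple-epithelium keratins Krt8 and Krt18 gave 2845 ± 297 and 956 ± 66.4. Cdx2, which specifies trophectoderm, gave 210, 315, 353 and 323 and was detected on each array, lowest on A. Eomes and Elf5 were mixed. Elf5 read 57.8 and 56.5 on A and B but -1.3 and 3.9 on C and D. Hand1 was silent with -16.7, 5.5, 14.8 and 9.4. In the primitive endoderm list 7 of 14 were expressed, led by basement membrane genes that many cells use. Sparc gave 2744 ± 148, the collagen IV gene Col4a1 1380 ± 115 and the laminin gene Lama1 795 ± 85.1. The master regulator Gata6 was dim but expressed, at 142, 157, 141 and 127. Sox7 and Sox17 lay near the threshold at 48.6 ± 11.7 and 42.8 ± 16.1, and Sox17 was lowest on D, with 53.8, 52.7, 45.2 and 19.3 on A to D. Gata4, Foxa2 and Afp were silent.

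Neural regulators were the most silent of the lineage lists, with 12 of 14 genes silent, beside 39.7% of all genes on the array. Sox1 (11.2, 10.5, -6.6 and -7.8), Pax6 (-18.5, -11.6, -2.9 and -2.7), Pax2 and Sox3 stood for the silent class. The intermediate filament gene Nes (251 ± 31.7) and the homeobox gene Otx1 (124 ± 19.6) were the 2 expressed members. Of the terminal genes of neurons and glia 7 of 13 were expressed, close to the 46.2% of all genes on the array. Stmn2, a microtubule regulator, reached 1901 ± 164 and the microtubule-associated Mapt 284 ± 12.1, whereas Tubb3, Snap25, Nefl and Gfap were silent.

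Most genes of the muscle and blood lists were also silent, beside 39.7% of all genes on the array. The skeletal list had 7 of 10 silent, among them the myogenic factors Myod1, Myf6 and Myog and the progenitor factor Pax3. The actin gene Acta1 was the exception with 501, 564, 482 and 574, and its probe may read other actins. In the cardiac list 7 of 12 were silent, with Tbx5, Tbx20, Hand2 and Gata4 among them, and the homeobox gene Isl1 was expressed at 82.5 ± 9.87. The blood and endothelial list had 10 of 16 silent. Tal1, Gata1, Runx1 and Spi1, which direct blood formation, had no array at detection. Etv2, the pioneer factor of endothelium, was expressed at 207, 186, 233.8 and 239.6, the angiopoietin receptor gene Tek at 132 ± 35.2 and Lmo2 at 71.2 ± 9.99.

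Primitive streak and endoderm genes were silent about as often as all genes on the array, of which 39.7% were silent and 46.2% expressed. Of 14 mesendoderm genes 5 were expressed (35.7%) and 6 silent (42.9%). Among the expressed, Hhex, a homeobox gene of anterior endoderm, gave 346 ± 17.6, Fgf8 101 ± 24.5, Gsc 58.5 ± 6.4 and Evx1 49.9 ± 4.8. Mixl1, Tbx6, Mesp2 and Lhx1 were silent. Gut, liver and pancreas genes were expressed at 2 of 14, Cdx2 and its relative Cdx1 (127 ± 7.1), with 6 mixed and 6 silent, Alb and Ins2 among the latter. In neural crest Sox9, Foxd3, Pax3 and Mitf were silent, and Ets1 (424 ± 66.7), Msx1 (179 ± 17.6) and Twist1 (114 ± 14.2) were expressed. In epidermis Krt10 (576 ± 29.1) and Krt14 (134 ± 8.7) were expressed, while Trp63, the master factor of that lineage, and Krt5 were silent. Germ cell genes were expressed at 7 of 18, beside 46.2% of all genes on the array. The X-linked homeobox gene Rhox5 (4790 ± 251), the retrotransposon repressor Tex19.1 (4686 ± 610) and the maternal factor Dppa3 (605 ± 55.8) were bright, and Prdm1, Nanos2, Sycp3 and Mael were silent.

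Families of developmental transcription factors showed the same division in full. Over 11 families 63 of 230 genes (27.4%) were expressed and 119 silent (51.7%), beside 46.2% and 39.7% of all genes on the array. All 9 Pax genes were silent. Of 14 T-box genes only Tbx3 was expressed, and of 10 Pou genes only Pou5f1 and Pou3f1. Hox genes, which pattern the body axis, were expressed at 8 of 38, none above Hoxa5 at 122 ± 15.1. Homeobox genes of the LIM, Dlx, Nkx and related groups were expressed at 4 of 33, led by Dlx3 (224 ± 8.7). Klf genes were expressed at 9 of 16, near the 46.2% of all genes on the array, with Klf9 (3726 ± 284) standing beside Klf5 and Klf2. Among 39 nuclear receptors 12 were expressed. The retinoid receptor gene Rxrb (1304 ± 44.4) and Nr6a1 (1008 ± 53.3), the germ cell nuclear factor that can repress Pou5f1, followed Esrrb. Of 16 Sox genes 7 were expressed, with Sox21 at 270 ± 7.1 next after Sox2. Fox genes were expressed at 14 of 41, led by Foxn3 (577 ± 51.4), Foxo1 (383 ± 15.8) and Foxa3 (323 ± 41.5).

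Of 24 LIF, BMP and FGF receptors and ligands 12 were expressed, close to the 46.2% of all genes on the array, and of 19 intracellular transducers and feedback genes 17 were. No test was made between these lists. Among ligands Bmp4 reached 1675 ± 198, and Fgf4, the ligand through which ES cells stimulate their own Erk pathway, 146 ± 18.6. The activin receptor gene Acvr2b gave 3100 ± 166, and the LIF receptor gene Lifr 48.9 ± 4.0. Bmpr2, Acvr1b, Acvr2a and Fgfr4 were silent. Socs3, the feedback inhibitor induced by Stat3, reached 5423 ± 357, and Stat3 itself 873 ± 49.6. The Erk phosphatase gene Dusp6 gave 3220 ± 343, the shared Smad gene Smad4 3851 ± 140, and beta-catenin (Ctnnb1) 5168 ± 752. Tcf7l1, the Tcf factor that represses pluripotency genes when Wnt is absent, gave 3226 ± 126. Spry2 was the silent member of that list. Wnt ligands were expressed at 7 of 19, with Wnt7b at 405 ± 28.6, and Fzd7 (1080 ± 71.9) was the brightest of 4 expressed Frizzled receptors. The interferon system was uneven. Ifitm2 (12170 ± 640) and Ifitm3 (3819 ± 182) were bright, whereas the receptor gene Ifnar1 and the antiviral genes Irf7, Ifit1 and Oas1a were silent.

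Most cell cycle genes were on. Of 22 replication and mitosis genes 18 were expressed. The helicase genes Mcm4 (12079 ± 422) and Mcm5 (8294 ± 448), the mitotic activator gene Cdc20 (5617 ± 218) and Cdk1 (3829 ± 366) were the brightest. Ccna2, Bub1 and Pola1, each with 1 probe, were silent although dividing cells need them. Among G1 genes 13 of 19 were expressed, including the cyclin gene Ccnd3 (6849 ± 289), the p53 regulator Mdm2 (4585 ± 426) and the inhibitor gene Cdkn1c (4150 ± 117), while Cdk6, Cdkn1b, Rbl2 and Mycn were silent. Chromatin regulators were expressed at 20 of 23, with Suz12 of Polycomb complex 2 at 7235 ± 1001, Phc1 of Polycomb complex 1 at 6546 ± 434 and the demethylase gene Kdm1a at 5539 ± 456. Jarid2 was silent. In DNA methylation 6 of 9 were expressed. Besides Dnmt3l and Dnmt3b these included Uhrf1 (6422, 6690, 6700 and 8178) and Dnmt1 (1341 ± 180), and Dnmt3a, Tet3 and Mbd2 were silent.

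Of 17 imprinted genes 11 were expressed, beside 46.2% of all genes on the array. Igf2, a paternally expressed growth factor gene, reached 13496, 14574, 15473 and 13464, rank 106, and Snrpn 6111 ± 502. Plagl1, Nnat, Sgce and Kcnq1 were silent. Of 15 genes on the Y chromosome 1 was expressed, the translation initiation factor gene Eif2s3y with 459, 521, 590 and 474, while its X-linked partner Eif2s3x gave 2118 ± 186. Xist, the RNA that silences an X chromosome, was silent with -0.3, -1.6, 9.5 and 13.4. Leaving out chemoreceptor genes, the share of genes expressed per chromosome ran from 39.8% on chromosome 1 to 55.8% on chromosome 17, apart from Y, and was 40.1% on X.

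Families that serve differentiated tissues were mostly silent. Over 14 tissue families 225 of 2101 genes (10.7%) were expressed. Olfactory receptors were expressed at 4 of 1058 (0.378%) and vomeronasal and taste receptors at 0 of 176, which gauges how often the rule calls a gene of these families expressed. The brightest olfactory receptor was Olfr985 at 189 ± 11.97. Without these receptors 221 of 867 tissue family genes (25.5%) were expressed. Over all genes on the array but these receptors, the tissue families included, the share was 49.9%, 7658 of 15359. Solute carriers, at 137 of 326, supplied most of the 221. Cadherins and protocadherins were expressed at 3 of 78: Cdh1 (E-cadherin, 956 ± 74.8), Cdh3 (285 ± 21.9) and Pcdh1 (118 ± 29.6). GABA, glutamate and glycine receptor names were expressed at 2 of 41, of which the brighter, Grina (4513 ± 502), is named for the NMDA receptor but is no channel subunit. Potassium channels had 7 of 67, led by Kcnk5 (1698 ± 106), and sodium and calcium channels had 1 of 28, Cacna1h (407 ± 5.43). Interleukins and chemokines were expressed at 8 of 62, led by Cxcl12 (257 ± 43.8). Claudins were expressed at 8 of 19, with Cldn4 (2708 ± 324) and Cldn6 (2372 ± 170.3) leading, keratins at 10 of 47 and collagens at 14 of 37, led by Col18a1 (5343 ± 205.4) and Col5a1 (1955 ± 52.2).

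Replicate arrays were close for most genes. The median coefficient of variation over the 4 GFP arrays was 9.37% among 7658 expressed genes whose brightest probe passed on all arrays, 16.8% in the dimmest of 4 equal bins and 6.19% in the brightest. In that brightest bin the most even gene was Wbp2 (13812, 13872, 13885 and 13936), and the next were Dmwd, Parp2, Psmb6 and Lig1. The most uneven was Exosc2, a subunit of the RNA exosome, with 562, 503.6, 1994 and 2223. Arrays A and B lay far below C and D. Ddit3, the stress-induced transcription factor CHOP, gave 3950, 2152, 1811 and 1842, with array A above the other 3, and Bclaf1, Elovl6 and Snora65 followed.

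The division of the arrays into A and B against C and D was tested gene by gene with limma, with a mean for each group and set over all 16 arrays and Benjamini-Hochberg adjustment over 8248 genes. In the GFP arrays 262 genes (3.18%) differed at an adjusted p under 0.05, 163 higher on A and B (1.98%) and 99 lower (1.2%). By call the 262 comprised 163 of 7662 expressed genes and 99 of 572 mixed genes tested. By definition a mixed gene passed on some GFP arrays only, and the lowest detected signal differed by set. The mixed genes tested had also entered through a knockdown group. The share among them is therefore tied to the call and is not compared with that of expressed genes. Exosc2 was lower on A and B by the widest margin, with a log2 difference of -1.91 ± 0.13 (SE, adjusted p = 4.22e-05). Grb2, an adaptor of receptor kinases, was higher on A and B, 100 and 112 against 34.0 and 31.9 on C and D (log2 difference 1.23 ± 0.15, adjusted p = 0.00186). The serotonin transporter gene Slc6a4 read 69.2 and 66.2 on A and B but 13 and 6.7 on C and D. Bmt2 read 73.7 and 68.3 on A and B but 14.0 and 11.4 on C and D. Emc7 was split in the same way, and Gpatch4, Zic2 and Cd55 ran opposite, with C and D above A and B. Of the 262 genes, 94.3% had the same sign of the set difference in the Esrrb arrays, 96.6% in the Sox2 arrays and 87.8% in the dual arrays. Over all 8248 genes the set difference in the GFP arrays correlated with that in these groups at r = 0.545, 0.647 and 0.488. The same-sign share over all genes was not computed, so the agreement is not shown to be particular to the 262. What the letters stand for is not given in the labels, and a cause was not tested. The count rests on the pooled fit: with the GFP arrays alone it was 1, and without array A, B, C or D it ran from 41 to 252. It was 2283 with no filter on dim probes (1501 higher, 782 lower) and 5350 with median scaling (141 higher, 5209 lower on A and B), so the split by direction depends on the scaling.

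**Figure D5:**
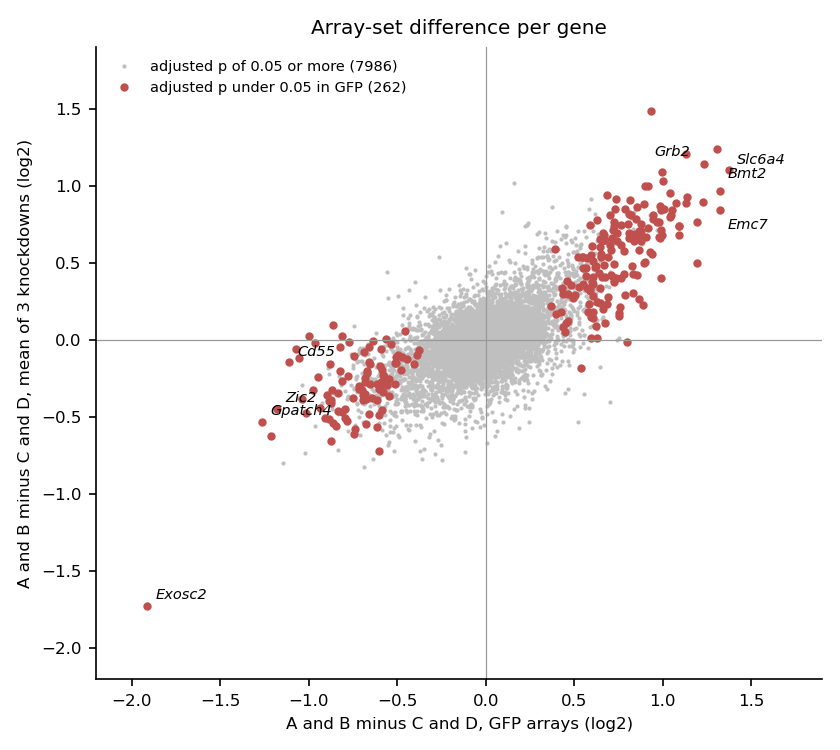
Log2 difference of arrays A and B minus arrays C and D for 8248 genes, in the GFP arrays (horizontal) and as the mean of the 3 knockdown groups (vertical). Red points are the 262 genes at an adjusted p under 0.05 in the GFP arrays. They lie mostly at the lower left and upper right, with Exosc2 at the far lower left.

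The calls made in control cells were then read in the knockdowns. Esrrb averaged 2691 ± 77.5 in Esrrb-hairpin cells, 4804 ± 176 in Sox2-hairpin cells and 3253 ± 143 in dual-hairpin cells, against 12841 ± 546 in GFP-hairpin cells. Sox2 averaged 495 ± 50.9, 513 ± 43.3 and 371 ± 22.8 in these knockdowns, against 795 ± 59.5 with the GFP hairpin. Both were thus called expressed in all 4 groups. Of the 7662 genes expressed in control cells 97.8% were also expressed in the Esrrb arrays, 97.3% in the Sox2 arrays and 96.2% in the dual arrays, against 46.8, 47.4 and 46.5% of all genes on the array. Of the 6588 silent genes 92.7, 92.1 and 92.8% were silent there too. Thus 7257 control-expressed genes were expressed, and 5618 control-silent genes silent, in all 3 knockdowns. The lowest detected signal was 30.6 to 35.4 on knockdown arrays A and B, against 37.4 and 43.7 on the GFP arrays, and 16.8 to 18.5 on knockdown arrays C and D, against 17.8 and 18 on the GFP arrays.

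A complete switch of call was rare. Genes silent in control cells and expressed in a knockdown numbered 2 for Esrrb, 9 for Sox2 and 6 for dual. Hand1, a trophoblast and heart factor, read 42.8, 40.6, 50.8 and 54.8 in Sox2-hairpin cells and 47.2, 36.9, 49.7 and 48.4 in dual-hairpin cells, above all 4 GFP arrays, whose highest was 14.8. Pigz, an enzyme of GPI-anchor synthesis, read 127, 125, 107 and 98.9 in Sox2-hairpin cells and at most 23.8 in GFP-hairpin cells. Myl3, Olfml3 and Slc16a4 also switched with the Sox2 hairpin, Olfml3 and Slc16a4 with the dual hairpins, and Bcl11a and Epas1 with the Esrrb hairpin. The lowest detected signal was 43.7 on GFP array A, 35.4 on Esrrb array A and 30.9 on Sox2 array A. Epas1 (35.6) and Olfml3 (34.3) on GFP array A lay above these knockdown values for Esrrb and Sox2, respectively. Their silent call on that array thus rested on its higher floor. How far the switches depend on the floor was not tested. Genes expressed in control cells and silent in these knockdowns numbered 2, 6 and 5. Of the 54 embryonic lineage genes silent in control cells 51, 51 and 44 were silent in the Esrrb, Sox2 and dual arrays. In the dual arrays 10 were mixed, and 0 were expressed in any knockdown. Over all 6588 control-silent genes 92.7, 92.1 and 92.8% were silent in these arrays. Only 0.0304, 0.137 and 0.0911% of them were expressed there, so 0 of 54 is near the share over all control-silent genes.

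The levels were then tested. Among the 7662 control-expressed genes 937 changed in Esrrb-hairpin cells (461 higher, 476 lower), against 11.6% of all 8248 genes tested (5.86% higher, 5.77% lower). With the Sox2 hairpin 3391 changed (1625 higher, 1766 lower), against 43.2% (21.7% higher, 21.5% lower), and with the dual hairpins 3474 (1647 higher, 1827 lower), against 44.4% (22.1% higher, 22.3% lower). The control-expressed genes are most of the genes tested, so these shares follow the background. The counts moved with the processing. The Esrrb count was 296 within arrays A and B, 444 within C and D and 188 with arrays scaled to one median (56 higher, 132 lower). The Sox2 count was 1993 within A and B and 1507 with median scaling, and the dual count 1712 with median scaling. Of the control-silent genes 14 could be tested, having passed only through a knockdown group in which they were detected, so their direction follows from that selection. Of these 1, 8 and 8 were higher, and 2 for Esrrb with the array letter as a block. The 3 contrasts share the GFP arrays and are given side by side without a comparison. Of the 13 naive pluripotency genes tested 9, 11 and 12 fell in the Esrrb, Sox2 and dual knockdowns. The shares lower over all genes were 5.77, 21.5 and 22.3%. The median log2 differences of the 13 were -0.87, -1.26 and -1.34, beside 0.0028, -0.0022 and -0.010 over all genes. Esrrb is itself among the 13, and its fall under the Esrrb and dual hairpins, which target it, was fixed by the design. Of the 12 trophectoderm genes tested 2, 9 and 8 rose and 1, 0 and 0 fell, beside 5.86, 21.7 and 22.1% higher over all genes. Only 9 of the 12 were expressed in control cells. The others passed through a knockdown group in which they were detected, so their direction is tied to that selection.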

How the data were processed

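The authors deposited non-normalized intensities and a detection score for each probe and array, and per the file headers the score is named a p-value. The deposited score is close to 1 where signal is high, and was treated as 1 minus p. The scanner software and earlier steps are not stated in the sources used. All 16 arrays have 25697 probes; 23978 carried a gene symbol and 23962 were matched by gene identifier. In descriptions the brightest probe in the GFP arrays stood for a gene. For tests, the 11591 probes expressed by the rule in some group were reduced to 1 per gene, 8248 in all. The probe kept was the one with the highest mean log2 value over all 16 arrays. Normalization (neqc, offset 16) and fits (lmFit, eBayes) used limma 3.58.1 in R 4.3.3, and adjusted p-values are limma's. The routine was tested on simulated data. Descriptions used Python 3.11.15 and pandas 2.3.3. The number of arrays limits the precision.

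Letters were checked for pairing: deviations of same-letter knockdown and GFP arrays correlated at 0.143 to 0.446 in all 12 pairs, although in 8 of the 12 another letter of the same set correlated best, so a fit with the letter as a block was run as well. Members, the 29 lists and the 42 families were chosen with earlier results of these data known. Name patterns for histones and heat shock proteins were corrected after the counts were seen. Named genes were the 20 brightest, all core pluripotency factors, up to 4 brightest expressed and 4 silent members per list, up to 3 per family, and extremes of variation, threshold, set difference and switches. Other list members were named for their known roles with their values already seen. Alternatives changed detection threshold, arrays required, array sets, normalization, filter and probe choice. Promoters of genes on chromosome 18 were not used here. A second deposited table, of processed ratios, was not used.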

Additional observations from a re-analysis of the deposited data

Results flagged for a closer look

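In 21 of 312 named genes (6.73%) 1 of the 4 GFP arrays stood far from the other 3, by the gap to its nearest neighbour relative to the range; chance gives about 1 in 20. The distant array was A for 7 genes, B for 1, C for 9 and D for 4.

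On array A, Ddit3 was high at 3949.9 (the others at most 2152), and Otx2 at 355.6, Tcf7l1 at 3037.3, Mcm4 at 11450.7 and the beta-defensin gene Defb25 at 287.6 were low. Tbx5 at -14 and Krt5 at 11.2 also stood apart there, but both are silent and these values lie in the background. On array B the imprinted inhibitor gene Cdkn1c was low at 3975.4.

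On array C, Map2 at 256.4, Sall1 at 275.9 and the Wnt receptor gene Fzd2 at 99.5 were high. Thy1 at 903.5, Col1a1 at 249.5, Cdc20 at 5293, Wnt7b at 362.5, the mitochondrial ribosomal gene Mrpl17 at 5449.4 and the chaperonin gene Cct6a at 17155.9 set apart the same array. On array D, Pou5f1 at 7010.4, Uhrf1 at 8178.2, the histone gene H2ac15 at 19645.3 and the proteasome gene Psmb6 at 8321.1 were high. Psmb6 is among the most even genes of the brightest of 4 intensity bins.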

How the results depend on the processing

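The numbers of expressed probes, expressed genes and silent genes stayed within 1.5 times under every alternative run. Expressed genes ran from 7480 at a detection p under 0.001 to 8845 with arrays C and D only, and silent genes from 5477 at a detection p under 0.05 to 7968 with arrays A and B only. Among 7658 expressed genes, the A and B mean was over 1.5 times the C and D mean in 308 and the reverse held in 67; among genes named by the stated rule such a gap was found for Ddit3, Olfr323, Gria3 and Grb2 (A and B higher) and Exosc2, Myh6 and Msc (C and D higher), and Sox17, named outside it, was higher on A and B. Counts of changed genes depended more on the processing. Control-expressed genes changed in Esrrb-hairpin cells numbered 296 within A and B, 444 within C and D and 188 with median scaling, against 937. For Sox2 they numbered 1993 within A and B and 1507 with median scaling, and for dual 1712 with median scaling. The replicate block gave 1152, 3765 and 3858; in Esrrb-hairpin cells it moved the control-silent genes changed to 2, against 1, and the control-mixed ones to 53, against 21, and among control-expressed, control-mixed and control-silent genes it moved no other count by over 1.5 times. The silent ones changed in Esrrb-hairpin cells numbered 3 with the array set as a block, 3 with no filter on dim probes and 1 to 2 when a GFP array was left out. With no filter the silent genes changed were 41 for Sox2 and 44 for dual, of 6588 tested. The 262 genes that differed between array sets became 5350 with median scaling (141 higher and 5209 lower on A and B), 2283 with no filter, 1 with the GFP arrays alone, and 41 to 252 with a GFP array left out: 41 without A, 76 without C and 65 without D. Within 1 set or with fewer arrays the fit has fewer samples; otherwise the cause was not tested.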
